A study of Mus musculus with 36 samples.

Results

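Cadherins and non-clustered protocadherins are cell-surface adhesion proteins, and 37 genes of this family were described in 36 single neurons of the mouse midbrain. The members were taken as a fixed list of gene symbols, not by any measured value, and all 37 were found among the 55359 genes of the deposited table. Each library is 1 neuron from a clone marked by MADM (mosaic analysis with double markers, a recombination method that labels the daughters of single dividing progenitors) on embryonic day 12, and 18 clones gave 2 cells each. The labels give 22 sSC cells from 16 clones, 12 dSC cells from 11 clones and 2 PAG cells from 2 clones, which are read here as the superficial and the deep superior colliculus and the periaqueductal grey. By genotype, 11 clones (22 cells) were M11GTTG-Fz10-CreER and 7 clones (14 cells) were M11GTTG-Sox2-CreER, so every cell carried the MADM reporters and a tamoxifen-dependent Cre driven by the promoter named. The mice were of a mixed C57/Bl6, FVB and CD1 background and of both sexes. The age of each mouse at collection is not given per cell (mice between embryonic day 9.5 and postnatal day 30 were used in the study), and the labels do not say which clones share an animal. The spread behind each p-value is thus the one between clones (or cells), and clone and animal cannot be told apart.

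Classical cadherins bind the same or a related cadherin on the neighbouring cell and are anchored to actin through catenins. Type I members such as Cdh2 (N-cadherin) give strong adhesion, while the many type II members differ between neuron types and laminae and are known for sorting neurons and their contacts. The non-clustered (delta) protocadherins adhere weakly and signal through their cytoplasmic tails, the Celsr genes act in planar cell polarity and axon guidance, and the Fat genes are giant cadherins of tissue polarity and growth. In the superior colliculus, cadherins and delta-protocadherins are known as markers of layers.

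The deposited value is an expression signal, in the authors' naming a TPM over exons and introns, and it sums to 2000000 in every cell. TPM is a value per transcript length, so levels of different genes are set side by side here only on that named scale. It holds no read depth. Per cell, between 2661 and 16769 genes reached a value of 1 (median 12058). The lowest was the sSC cell of clone B, and the next lowest had 6180. All 6 neuronal markers were at 1 or more in at least 18 cells, with a sum between 375 and 5192. The 6 oligodendrocyte markers summed to between 856 and 21062 and the 7 microglial markers to between 85.4 and 9419. All 13 were at 1 or more in at least 18 cells although the label is neuron. The 6 astrocyte markers had a median sum of 152 and a highest of 533. Of these 6, 5 were at 1 or more in at least 18 cells. The sSC cell of clone B had the lowest neuronal sum, 375, beside oligodendrocyte and microglial sums of 12454 and 6699. Over the 37 members the rank correlation of a member with the summed oligodendrocyte markers ran between -0.32 and 0.28 (36 cells, a description), and that with the microglial markers between -0.42 and 0.32. With the astrocyte markers the rank correlation of a member ran between -0.29 and 0.42. The precursor markers of oligodendrocytes were low by their median sum, 2.17, but reached a sum of 258 in an sSC cell of clone R. Their rank correlation with a member ran between -0.18 and 0.51. The part of these non-neuronal markers in the member levels was not tested.

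The family as a whole was broadly present, with a few members in nearly every neuron and many in some neurons only. Of the 37 members, 24 were at 1 or more in at least 18 cells and 13 in fewer, of which 5 were under 25% of cells. A median of 10 or more was reached by 14 members and a median of 0 by 10 members. A value of 100 or more was reached in at least 1 cell by 17 members. The heatmap of all members by cell shows a few rows that are bright throughout and many that are bright in scattered cells.

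**Figure D1:**
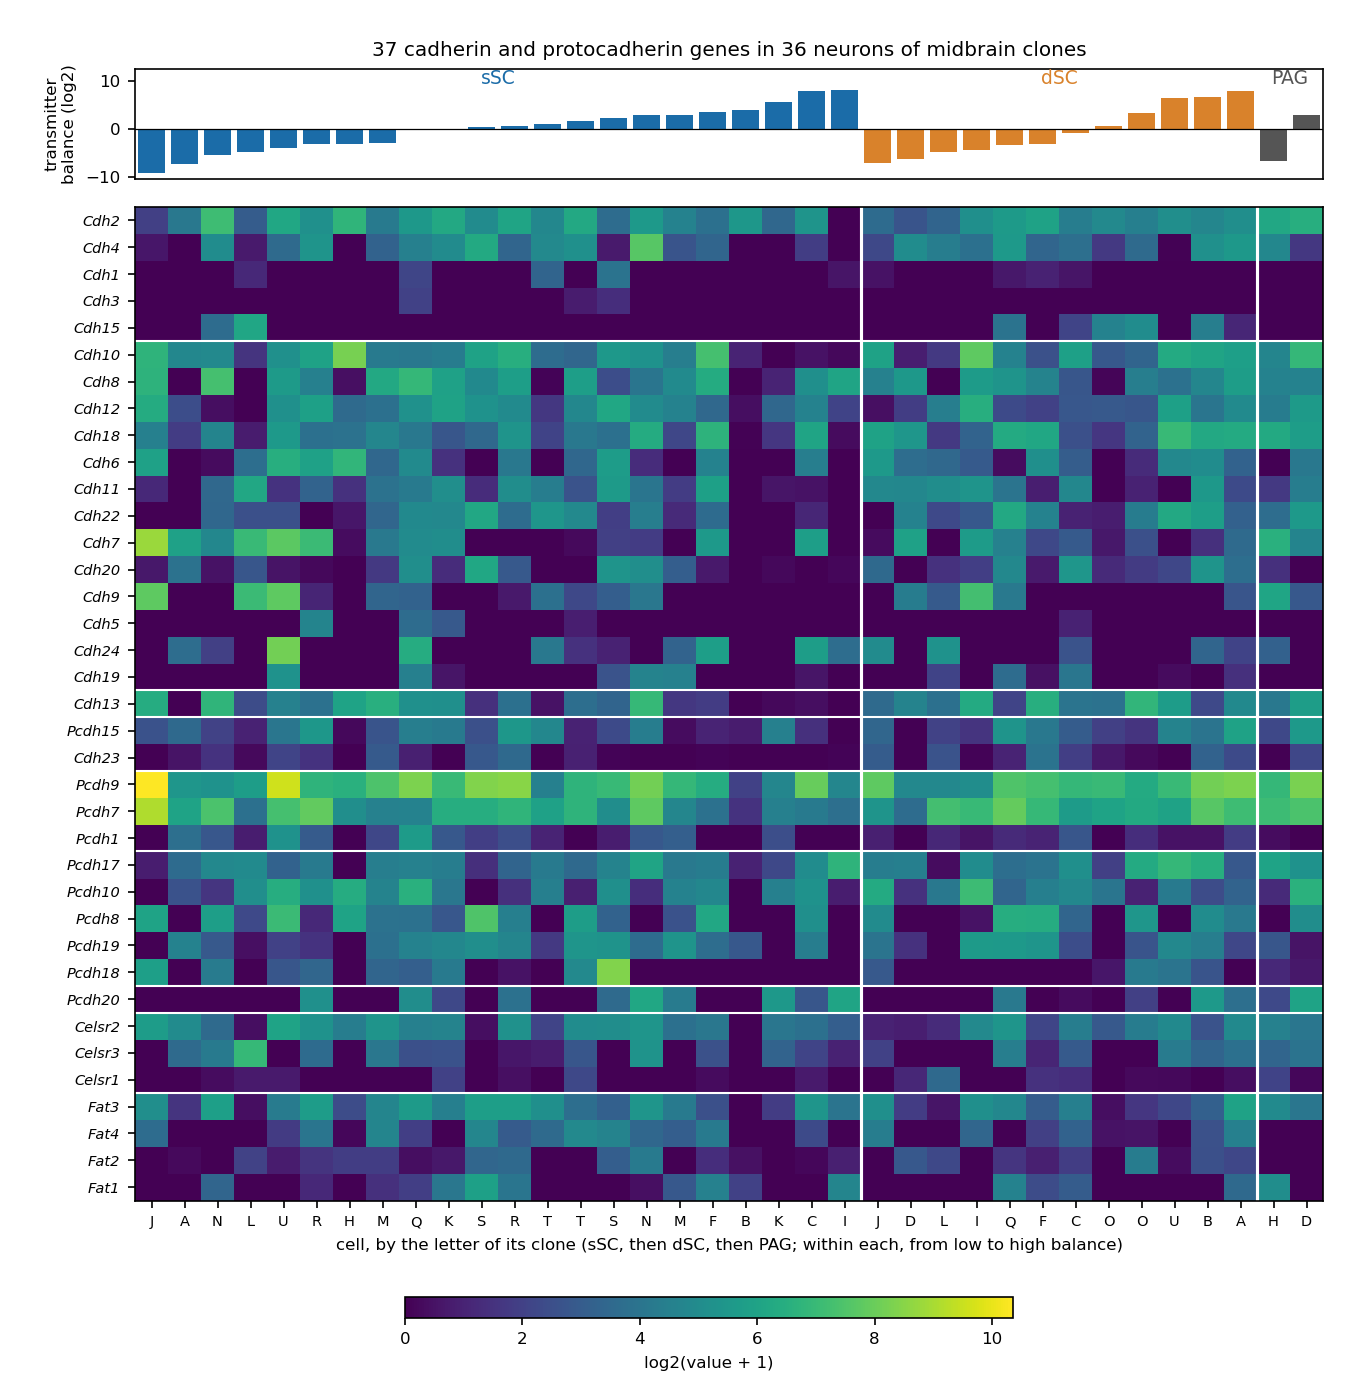
Level of the 37 members as log2(value + 1), colour scale, in each of the 36 cells, with rows grouped by subfamily and columns by tissue (sSC, dSC, PAG) and, within a tissue, by transmitter balance (upper bars, log2; positive towards GABA markers). Pcdh9 and Pcdh7 are at 1 or more in all 36 cells, whereas Cdh1, Cdh3 and Cdh5 are at 1 or more in 4, 2 and 3 cells.

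Of the 37 members, the delta-1 protocadherins Pcdh9 and Pcdh7 had the highest medians. Pcdh9, a delta-1 protocadherin with a long cytoplasmic tail, had a median of 112 in sSC cells (range 2.99 to 1304) and 128 in dSC cells (range 27.6 to 317). Pcdh7, its close relative, had a median of 46.3 in sSC cells (1.87 to 553) and 99.2 in dSC cells (11.6 to 238). These were the only 2 members at 1 or more in all 36 cells, and the tissue ranges overlapped widely for both. The sSC cell of clone J held the highest value of each. The third delta-1 gene, Pcdh1, had a median of 1.04 over the 36 cells and reached 50.2 in 1 sSC cell.

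Among the type I cadherins, Cdh2 was the most widespread. Its median was 33.6 in sSC cells (0 to 139) and 27.2 in dSC cells (5.39 to 62.0), and it was at 1 or more in 35 of 36 cells. Cdh4 (R-cadherin) had a median of 10.2 over all cells and a highest value of 204 in an sSC cell of clone N. Cdh1 (E-cadherin) and Cdh3 (P-cadherin), both known from epithelia, did not exceed 14.2 and 3.01. Cdh15 (M-cadherin), known from muscle and cerebellum, was at 1 or more in 8 cells and reached 68.7. It overlaps another gene on the same strand, Gm20388, which was at 1 or more in all 36 cells.

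Type II cadherins made up the most varied group, with 13 genes and a median of 6 at 10 or more per cell (0 to 12). Cdh10 had a median of 23.7 in sSC cells (0 to 301) and 39.9 in dSC cells (0.810 to 221). Cdh8 had a median of 32.5 in sSC cells (0 to 156) and 23.3 in dSC cells (0 to 52.6). Cdh12 had a median of 23.01 in sSC cells (0 to 81.9) and 6.19 in dSC cells (0.347 to 89.6). All 3 are type II cadherins of the brain, and for each the tissue ranges overlapped. Cdh18 followed with a median of 16.8 over the 36 cells, Cdh6 with 9.97, Cdh11 with 9.49, Cdh22 with 9.03, Cdh7 with 5.78 and Cdh20 with 1.76. Cdh9, Cdh24, Cdh19 and Cdh5 had medians under 1 or of 0. In the annotation used for symbols, Cdh6, Cdh9, Cdh10, Cdh12 and Cdh18 are neighbours in a row on chromosome 15.

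Some type II values may hold reads of an overlapping gene, since the use of strand is not given. Gm15679, antisense to Cdh8, had a median of 28.95 and ranked with Cdh8 across cells (Spearman 0.75, Pearson 0.75, 36 cells). Gm17606, opposite to Cdh24, had a median of 177, with a rank correlation of 0.32. In the cell with the highest Cdh24 value (285, sSC cell of clone U) Gm17606 was at 386. Likewise 1700027H10Rik, antisense to Pcdh10, had a median of 83.5 and a rank correlation of 0.78 with it. The levels of these 3 members are therefore uncertain. Gm49127, antisense to Cdh9, had a rank correlation of 0.42 and was at 47.9 in the cell with the highest Cdh9 value (221). Gm9748, antisense to Pcdh8, had one of 0.48 but was at 0 in the cell with the highest Pcdh8 value. Pcdh7 and Pcdh9 hold same-strand genes such as Gm42639 (median 9.58, highest 304) and Gm17922 (median 2.81, highest 336). Shared reads in these members were not tested either.

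The delta-2 protocadherins, which bind the WAVE actin regulators through their tails, were present at middle levels. Pcdh17 had a median of 18.02 in sSC cells (0 to 105) and 20.6 in dSC cells (0.273 to 117). Pcdh10 had a median of 21.5 in sSC cells (0 to 95.0) and 15.99 in dSC cells (0.996 to 134). Pcdh8 and Pcdh19 had medians of 11.5 and 9.05 over all cells. Pcdh18 was the odd one out of the 5, with a median of 0 and a single high value of 331 in an sSC cell of clone S, where the next highest cell had 56.0. Within each of these genes the values of the tissues overlapped.

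Of the large cadherins, Celsr2 and Fat3 led their groups. Celsr2 had a median of 20.9 in sSC cells (0 to 63.0) and 13.02 in dSC cells (0.821 to 41.1). Fat3, known for shaping dendrites of retinal amacrine cells, had a median of 20.1 in sSC cells (0 to 55.8) and 7.54 in dSC cells (0.304 to 61.9). Celsr3, needed for axon tracts, had a median of 4.06 and reached 121 in an sSC cell of clone L, and Celsr1 was at 1 or more in 7 cells. Fat4, Fat2 and Fat1 had medians of 2.87, 0.803 and 0. The tip-link cadherins of hair cells, Pcdh15 and Cdh23, had medians of 5.21 and 0.334, and the GPI-anchored Cdh13 (T-cadherin) had 13.8.

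**Figure D2:**
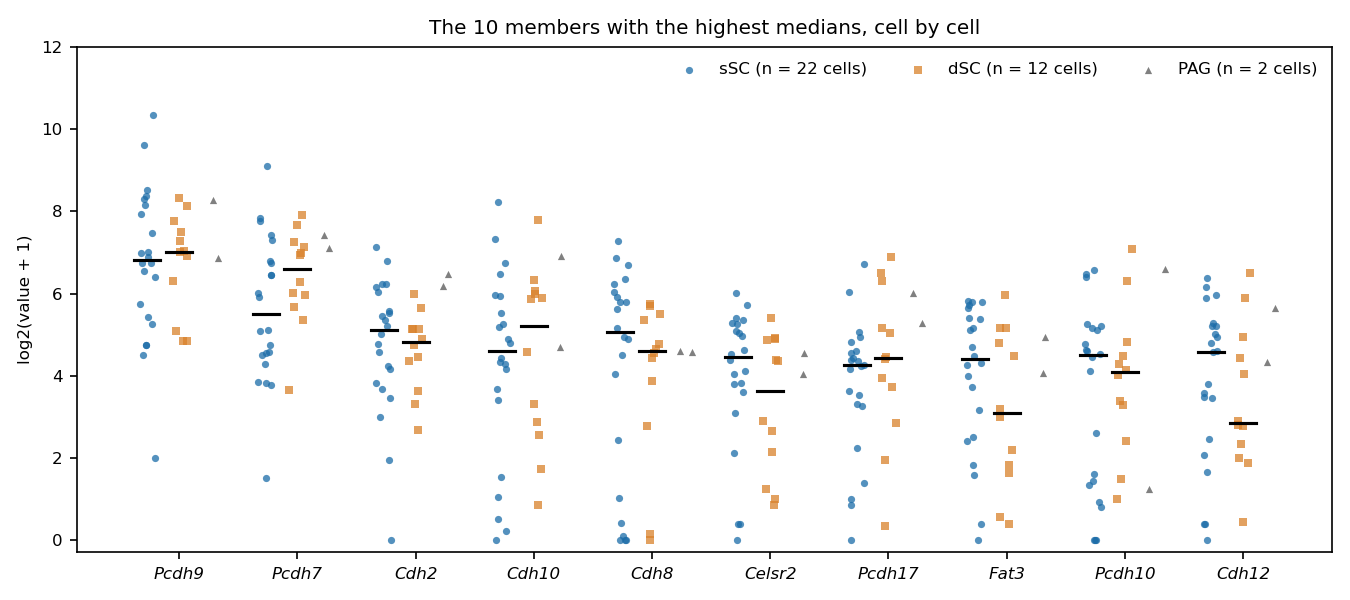
Values of the 10 members with the highest medians in each cell as log2(value + 1); blue circles are sSC cells, orange squares dSC cells and grey triangles PAG cells, and black bars are medians of sSC and dSC cells. The sSC and dSC points overlap for each of the 10 genes, and only Pcdh9 and Pcdh7 have no cell at 0 in either tissue and none under 1.

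Cdh5 (VE-cadherin), the defining cadherin of endothelial cells, served as a check on vessel RNA. It was at 1 or more in 3 cells, all from sSC, with values of 24.5 (clone R), 11.6 (clone Q) and 6.38 (clone K). None of the 6 endothelial markers was at 1 or more in 18 of the 36 cells, and their sum had a median of 2.66 in sSC cells (0 to 117) and 21.3 in dSC cells (0.189 to 359). In the 3 cells with Cdh5 the endothelial sum was 10.6 (clone R), 16.5 (clone Q) and 29.9 (clone K), each above the sSC median and below the highest sSC cell. The dSC cell with the highest endothelial sum had Cdh5 listed at 0. The part of vessel RNA in the Cdh5 values was not tested.

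At a value of 10 or more, no 2 cells held the same set of members. Counting a member as present at 10 or more, a cell had between 1 and 26 members with a median of 16, and the 36 cells had 36 distinct combinations. The cell with 1 member was the sSC cell of clone B, which also had the fewest genes. The number of members rose with the number of genes at 1 or more in the cell (Pearson 0.73, Spearman 0.58, 36 cells, a description). Whether library quality lies behind this was not tested. At 1 or more the median was 24 members and there were again 36 combinations, while at 100 or more it was 2 members and 20 combinations. With this many genes, distinct sets are likely for almost any list of variable genes, and no other list was set beside this one.

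The type II gene with the highest value in a cell differed from cell to cell. Cdh10 led in 8 cells, Cdh8 in 7, Cdh18 in 7, Cdh7 in 5, Cdh12 in 4, Cdh22 in 2, Cdh24 in 2 and Cdh9 in 1. Cdh8 led in 6 of 22 sSC cells and 1 of 12 dSC cells, and Cdh18 in 2 of 22 sSC cells and 5 of 12 dSC cells. These are counts with no test. They include cells whose leader was under 10: the sSC cell of clone B (Cdh10, 1.06), an sSC cell of clone K (Cdh12, 9.96) and a dSC cell of clone O (Cdh12, 6.45). The levels of Cdh8 and Cdh24 are uncertain, as given above. Across all members, Pcdh9 led in 19 cells, Pcdh7 in 7 and Cdh10 in 3, and Cdh2, Cdh7, Cdh9, Cdh13, Pcdh17, Pcdh18 and Pcdh20 each led in 1 cell. Among the 24 members at 1 or more in at least 18 cells, the 276 pairs had a median rank correlation of 0.22 across the 36 cells (-0.19 to 0.59). The highest was that of Cdh12 with Celsr2 (0.59), followed by Cdh18 with Pcdh9 (0.58) and Cdh4 with Cdh22 (0.58). The cells share 1 library protocol and differ in genes detected, so these are descriptions only.

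Sibling neurons, which descend from the same progenitor, held sets whose overlap lay near that of cells from different clones, a comparison given with no test. The Jaccard overlap (shared members over members in either cell, at 10 or more) had a median of 0.406 over the 18 sibling pairs (0.0556 to 0.633) and 0.400 over the 612 other pairs. The rank correlation over the 37 members had a median of 0.44 in siblings and 0.45 in other pairs. Among pairs within sSC, overlap and rank correlation had medians of 0.436 and 0.477 in 6 sibling pairs, against 0.400 and 0.405 in 225 other pairs. Among pairs of 1 sSC and 1 dSC cell they were 0.391 and 0.372 in 9 sibling pairs, against 0.391 and 0.448 in 255 other pairs. Siblings led with the same type II cadherin in 2 of 18 pairs (11.1%), which were clones K (Cdh12) and M (Cdh8), against 86 of 612 other pairs (14.1%). In clone K Cdh12 was at 9.96 in 1 cell and 61.3 in the other. In clone A the sSC cell led with Cdh7 and the dSC cell with Cdh18, and in clone J the sSC cell led with Cdh7 and the dSC cell with Cdh10. The pair with the lowest overlap, clone B, contains the cell with the fewest genes.

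Asked gene by gene, siblings did not resemble each other in any member beyond the threshold. With tissue as a covariate, limma's moderated F test on the 16 clones with 2 collicular cells called 0 of 33 members tested at an adjusted p of 0.05, beside 3 of 15132 genes (0.0198% of genes). At an unadjusted p under 0.05 there were also 0 members, against 1180 genes (7.8% of genes). The smallest adjusted p of a member was 0.649 (Fat3). Sibling values, centred on the tissue means, correlated between -0.35 (Cdh12) and 0.48 (Pcdh15) across members, with a median of -0.06, against 0.01 over all genes tested. Pcdh15 and Fat3 (0.34) had the highest sibling correlations, and 12 of 33 members were above 0, against 52.2% of all genes.

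The study sampled neurons of the superficial and deep colliculus, and the first comparison asks whether members differ between these tissues. No member did so past the threshold. In limma on 16 sSC and 11 dSC clone means, 0 of 32 members tested passed, as did 0 of 14613 genes (0% of genes). The members not tested were the 5 at low values (Cdh1, Cdh3, Cdh5, Cdh15 and Celsr1). The smallest adjusted p of a member was 0.941. Differences (sSC minus dSC, log2) had a median of -0.09 over the members and -0.31 over all genes, with 13 of 32 members and 32.7% of genes above 0. The estimates ran between -1.43 (Cdh13) and 1.10 (Cdh7), with standard errors between 0.48 and 0.99, so a difference of the size of these errors could not be seen.

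At an unadjusted p under 0.05 there was 1 of 32 members, Cdh23, against 5.16% of genes. Cdh23, an unusually long cadherin of the hair-cell tip link, had a median of 0.0845 in sSC cells (0 to 10.6) and 1.93 in dSC cells (0 to 14.5). The values overlapped and most were under 10. On the log2 scale the 16 sSC clone means averaged 0.67 ± 0.82 (SD) and the 11 dSC clone means 1.70 ± 1.45 (SD), which differ by -1.03 (SE 0.49, limma adjusted p = 0.941). Vsir, on the opposite strand, overlaps Cdh23, and the 2 ranked alike (Spearman 0.78, 36 cells), so the source of these reads is uncertain.

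In the study, 9 clones had a cell in each tissue, and there siblings could be set against each other. With clone as a replicate block, 0 members passed the adjusted threshold, and 5 of 32 were at an unadjusted p under 0.05, against 8.99% of genes. These were Cdh23 (-1.58), Cdh22 (-1.95), Pcdh15 (-1.68), Cdh4 (-2.14) and Cdh7 (2.78), as log2 differences sSC minus dSC, with limma adjusted p between 0.529 and 0.549. Of these 5, only Cdh7 was higher in sSC. Over all genes the median difference in this fit was -0.66, so lower values in sSC were common. Pcdh15 was lower in the sSC sibling in 9 of 9 clones, a count found in 0.424% of the 14613 genes and picked out after the values were seen. The sSC sibling had fewer genes at 1 or more than the dSC sibling in 7 of 9 clones, with medians of 9297 and 12242 genes. One of the 9 pairs holds the sSC cell of clone B, with 2661 genes and the lowest neuronal marker sum (375). In that cell Cdh4, Cdh22, Cdh23 and Cdh7 were at 0 and Pcdh15 at 0.733. Its dSC sibling had 35.9, 54.5, 8.58, 1.72 and 14.9. The part of this pair in the 5 differences was not tested. Across the 36 cells the correlation with that number was 0.54 for Cdh4, 0.52 for Pcdh15, 0.35 for Cdh22, 0.27 for Cdh23 and 0.16 for Cdh7 (Pearson). The endothelial marker sum, also lower in sSC than in dSC cells by its medians, had rank correlations of 0.41 with Cdh4, 0.40 with Cdh22, 0.30 with Cdh23, 0.27 with Pcdh15 and -0.10 with Cdh7. The microglial sum was lower in sSC too (medians 1230 and 2122), as was the oligodendrocyte sum (3025 and 4462). Rank correlations with the microglial sum were 0.32 for Cdh23, 0.06 for Pcdh15, -0.03 for Cdh4, -0.10 for Cdh22 and -0.20 for Cdh7. With the oligodendrocyte sum they were 0.19, -0.01, 0.09, 0.15 and -0.19 in the same order. The part of library quality and of RNA from vessels, microglia or oligodendrocytes in these 5 differences was not tested.

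The sibling values show the size of these differences. Pcdh15 had a median of 1.71 in the 9 sSC siblings (0.0206 to 20.6) and 14.9 in the 9 dSC siblings (1.94 to 61.1). Cdh4 had a median of 0.662 in sSC siblings (0 to 22.1) and 13.3 in dSC siblings (0.0452 to 46.4), and was lower in sSC in 7 of 9. Cdh22, a type II cadherin, had a median of 1.15 in sSC siblings (0 to 29.4) and 8.40 in dSC siblings (0 to 75.2). Cdh7 ran the other way and was higher in the sSC sibling in 7 of 9 clones, with a median of 54.5 in sSC siblings (0 to 442) and 3.78 in dSC siblings (0 to 50.6). In clones J, L and U the Cdh7 contrast was widest, at 442, 127 and 211 in the sSC cell against 0.219, 0 and 0 in the dSC cell. In clones B and I it was reversed, with 0 and 0 in the sSC cell against 1.72 and 50.6 in the dSC cell. Transmitter balance also differed within some pairs, at -3.96 (sSC) and 6.52 (dSC) in clone U and 8.18 and -4.46 in clone I. In clones J (-9.22 and -7.02), L (-4.73 and -4.86) and B (3.99 and 6.75) both siblings lay on the same side of 0. Tissue and transmitter were not separated in these sibling differences, and the part of transmitter was not tested.

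**Figure D3:**
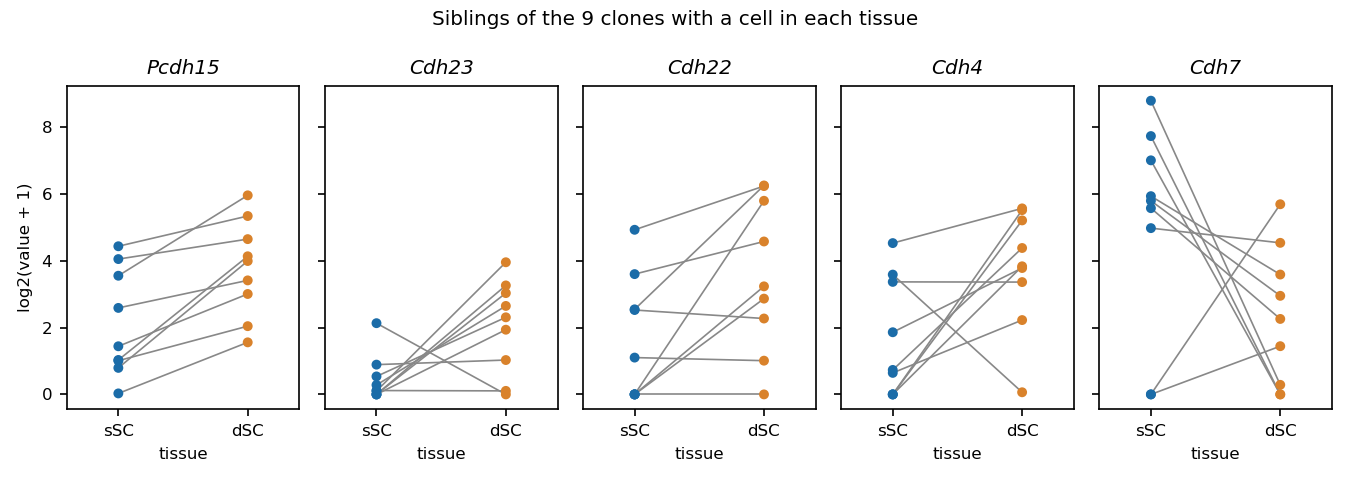
Values of 5 members as log2(value + 1) in the sSC sibling (left, blue) and the dSC sibling (right, orange) of each of the 9 clones with a cell in both; each line is 1 clone. Pcdh15 is lower in the sSC sibling in 9 of 9 clones, whereas Cdh7 is higher in the sSC sibling in 7 of 9.

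The second comparison set the clones of the 2 Cre drivers against each other within sSC. No member passed the threshold: in limma on 11 Fz10-CreER and 5 Sox2-CreER clone means, 0 of 31 members tested and 0 of 14320 genes did (0% of genes). At an unadjusted p under 0.05 there was 1 of 31 members, against 4.1% of genes. This was Cdh13, a GPI-anchored cadherin without a cytoplasmic tail, with a median of 4.27 in Fz10-CreER sSC cells (0 to 83.2) and 64.0 in Sox2-CreER sSC cells (2.21 to 120). The ranges overlapped. The difference was -2.55 (Fz10-CreER minus Sox2-CreER, log2, SE 1.17, limma adjusted p = 1.0). Over the members the median difference was -0.67, with 6 of 31 above 0, against -0.38 and 34.03% over all genes. When the number of genes detected was a covariate, the median over all genes was 0.13. Whether library quality lies behind the shared shift was not tested.

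The third comparison asks whether members vary with the transmitter of the neuron, as read from the deposited levels. Transmitter balance averages Gad1 and Gad2, the GABA-making enzymes, with Slc32a1, the GABA vesicle transporter, on the log2(value + 1) scale, and subtracts Slc17a6, the vesicular glutamate transporter. It ran continuously between -9.22 and 8.18 across the 36 cells, with a median of 0.18. Cells were not sorted into classes, and a slope per unit of balance was fitted with tissue and driver as covariates and clone as a random block. In limma 0 of 32 members passed, where 12 of 14898 genes did (0.0805% of genes), and at an unadjusted p under 0.05 there were 3 of 32 members, against 5.12% of genes. Over the members the median slope was 0.01, with 17 of 32 above 0, against -0.001 and 49.2% over all genes.

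The 3 members were Pcdh20, with a slope towards GABA, and Cdh7 and Cdh9, with slopes towards Slc17a6. Pcdh20 (ENSMUSG00000050505), a non-clustered protocadherin, was at 1 or more in 16 cells and at 0 in 19. Its values were 0 to 71.2 in sSC cells and 0 to 45.7 in dSC cells with a median of 0 in both, and it was at 62.4 (clone D) and 3.81 (clone H) in the 2 PAG cells. Its slope was 0.27 (SE 0.071, limma adjusted p = 0.279), and with clone as a fixed replicate block 0.34 (adjusted p = 0.309). The high cells included the sSC cells of clone N (71.2), clone I (64.4) and clone K (45.1), with balances of 2.90, 8.18 and 5.65. High values also occurred at negative balance. Pcdh20 was at 35.5 in an sSC cell of clone R (balance -3.11), 32.3 in the sSC cell of clone Q (-0.11) and 17.2 in its dSC sibling (-3.40). Several cells of high balance were at 0, among them the dSC cell of clone U with a balance of 6.52.

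Cdh7 (ENSMUSG00000026312), a type II cadherin, had a median of 9.98 in sSC cells (0 to 442) and 4.30 in dSC cells (0 to 59.2), and was at 24.4 (clone D) and 93.8 (clone H) in the PAG cells. Its slope was -0.27 (SE 0.087, limma adjusted p = 0.546), and -0.36 with clone as a fixed block (adjusted p = 0.742). Cdh9 (ENSMUSG00000025370), a type II cadherin known for contacts of retinal bipolar cells and hippocampal mossy fibres, had a median of 0.318 in sSC cells (0 to 221) and 0 in dSC cells (0 to 151), and was at 6.18 (clone D) and 66.9 (clone H) in the PAG cells. Its slope was -0.25 (SE 0.081, limma adjusted p = 0.584), and -0.21 with clone as a fixed block (adjusted p = 1.0). The cell of lowest balance, from sSC of clone J, had the highest Cdh7 value (442) and the second highest Cdh9 value (218). The highest Cdh9 value (221), also from sSC, was in clone U, where Cdh7 was 211.

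Cdh7 and Cdh9 went together across cells (Pearson 0.58, Spearman 0.47, 36 cells, a description), and 7 of the 9 cells with Cdh9 at 10 or more also had Cdh7 at 10 or more. Pcdh20 was at 10 or more in 12 cells, 5 of which also had Cdh7 at that level. Within sSC the rank correlation with balance was 0.48 for Pcdh20, -0.62 for Cdh7 and -0.41 for Cdh9 (22 cells). Within dSC it was 0.57 for Pcdh20, -0.12 for Cdh7 and -0.44 for Cdh9 (12 cells). The Cdh7 relation was thus weak in dSC, and whether the tissues differ was not tested. Balance had rank correlations of 0.25 with the summed oligodendrocyte precursor markers, 0.19 with the neuronal, 0.12 with the oligodendrocyte, -0.03 with the microglial, -0.04 with the meningeal or fibroblast, -0.05 with the astrocyte and -0.15 with the endothelial markers. Pcdh20 itself ranked with the neuronal (0.42) and the oligodendrocyte precursor markers (0.37), whereas for Cdh7 and Cdh9 the largest of these values in size were 0.29 (neuronal) and -0.26 (microglial). The part of these markers in the slopes was not tested.

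**Figure D4:**
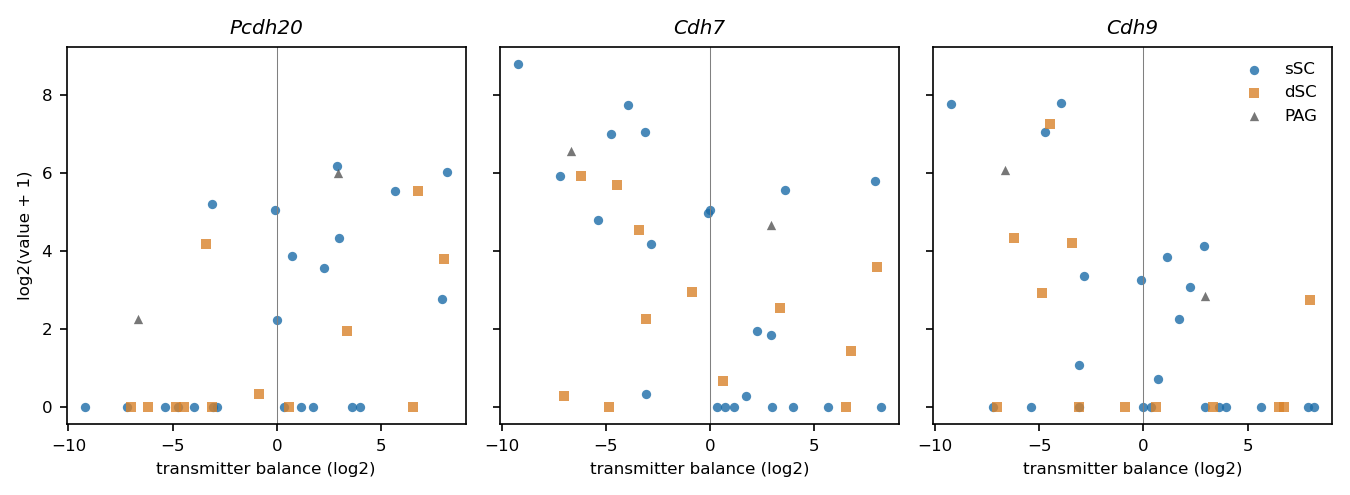
Level of Pcdh20, Cdh7 and Cdh9 as log2(value + 1), vertical axis, against transmitter balance (log2, positive towards GABA markers), horizontal axis, in each of the 36 cells; blue circles are sSC, orange squares dSC and grey triangles PAG. High Cdh7 and Cdh9 values lie mostly at negative balance and high Pcdh20 values mostly at positive balance, with many cells at 0 throughout (slopes -0.27, -0.25 and 0.27).

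The promoters of these 3 genes are printed because they are the members with the steepest slopes, and they differ in how many CG dinucleotides they hold. The sequences are from RefSeq (build GRCm38.p6, an older build than that of the deposited table) and run from 250 bases before to 50 after the first annotated start, with each CG in capitals.
Pcdh20, minus strand, chr14:88471347-88471646: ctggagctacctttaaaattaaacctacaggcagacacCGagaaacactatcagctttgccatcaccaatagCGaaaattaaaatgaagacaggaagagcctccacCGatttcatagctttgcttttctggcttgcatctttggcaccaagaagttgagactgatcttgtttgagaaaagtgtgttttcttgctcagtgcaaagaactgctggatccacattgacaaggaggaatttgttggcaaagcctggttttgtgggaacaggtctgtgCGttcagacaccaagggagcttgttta
Cdh7, plus strand, chr1:109982650-109982949: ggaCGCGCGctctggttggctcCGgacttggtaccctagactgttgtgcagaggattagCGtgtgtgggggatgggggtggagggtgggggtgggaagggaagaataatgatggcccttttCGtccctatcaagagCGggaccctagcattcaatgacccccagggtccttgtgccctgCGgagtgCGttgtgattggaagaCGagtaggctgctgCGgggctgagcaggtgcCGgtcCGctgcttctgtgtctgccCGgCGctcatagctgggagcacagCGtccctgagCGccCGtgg
Cdh9, plus strand, chr15:16728665-16728964: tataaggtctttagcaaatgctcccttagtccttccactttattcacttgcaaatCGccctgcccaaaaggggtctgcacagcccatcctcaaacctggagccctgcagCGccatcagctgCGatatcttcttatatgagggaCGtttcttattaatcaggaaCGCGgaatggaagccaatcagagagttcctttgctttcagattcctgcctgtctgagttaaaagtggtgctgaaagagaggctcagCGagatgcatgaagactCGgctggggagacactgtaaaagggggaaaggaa
They hold 4, 18 and 8 CG dinucleotides. At the later annotated starts of Cdh7 the number was 19 and 4, so for Cdh7 it depends on the start taken. Of the 37 members 27 had such a sequence, with 2 to 40 CG per promoter and a median of 14, against a median of 7 over all 27025 promoters of the table, of which 94.2% had at least 1. The CG number and the number of cells with the gene at 1 or more ranked together weakly across the 27 members (Spearman 0.28), which is a description across genes.

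**Figure D5:**
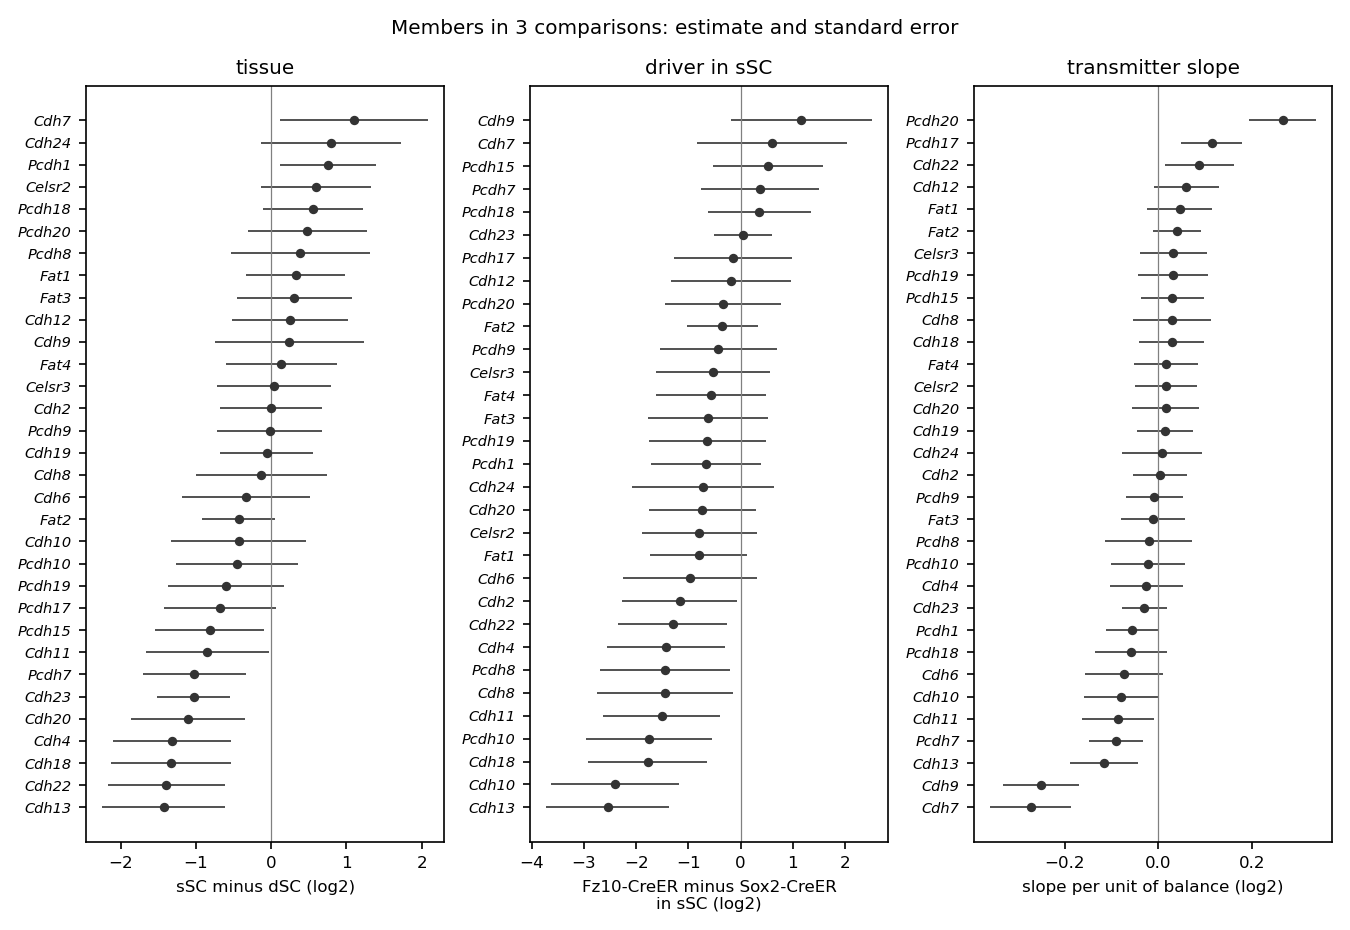
Estimates for each member tested with their standard errors (bars, log2 scale): the difference sSC minus dSC, the difference Fz10-CreER minus Sox2-CreER in sSC, and the slope per unit of transmitter balance. No estimate passed the adjusted threshold of 0.05, and the slopes of Pcdh20 (0.27), Cdh9 (-0.25) and Cdh7 (-0.27) lie farthest from 0 in their panel.

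The intracellular and polarity partners of the family were tested in the same fits, and none was called. Of 8 catenins tested, which link cadherins to actin, 3 were above 0 between tissues (median -0.18) and 1 in the slope (median -0.03). Of 9 planar cell polarity partners, 1 was above 0 between tissues, with Prickle1 at -1.65 (sSC minus dSC, limma adjusted p = 0.941), and 0 between drivers, with Fzd3 at -2.74 and Ankrd6 at -2.81 (adjusted p = 1.0 each). Of 9 WAVE complex genes, 3 were above 0 between tissues and 4 in the slope. Of 7 other cadherin superfamily genes tested, Cdhr1, a photoreceptor cadherin, had a slope of 0.31 towards GABA (limma adjusted p = 0.159) and Dchs2, a partner of Fat4, one of -0.15 (adjusted p = 0.827). As with the members, the shares above 0 in the driver and tissue comparisons stood beside 34.03% and 32.7% of all genes.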

How the data were processed

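Per the labels' protocols, polyA RNA of each neuron was turned into a library with a SMART-Seq Single Cell PLUS kit. The submitters' processing notes name STAR 2.7.9a, R 4.0.3 and the build GRCm39. Not given in the sources used here are the counting program, the annotation, the use of strand and how the values were computed. What the authors deposited is a normalised signal for each gene in each cell, called by them a TPM over exons and introns, and each cell adds up to 2000000. Read depth cannot be recovered from it, so no counting interval is given, and a 0 can stand for a transcript that was missed. The plan had assumed plain TPM, and its log-scale tests suit this unit too. Symbols came from GENCODE M21 (another build, from which gene order and overlaps were taken but no coordinates), with 52083 of 55359 genes matched.

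Values were transformed as log2(value + 1), which understates differences of low genes. A gene was tested when 25% or more of the cells compared had it at 1 or above. The tool was limma 3.58.1 (R 4.3.3), with a trended and robust eBayes step, Benjamini-Hochberg adjustment over all genes tested and a threshold of 0.05. Cells of 1 clone and tissue were averaged for the tissue and driver fits. The slope fit used all 36 cells with clone as a random block (sibling correlation 0.0464), and the 4 genes that define the balance were not tested there. The fits were also run on simulated data, drawn as independent normal values with large planted changes. Those data lacked the many zeros and the sibling correlation of the cells, so that run cannot show how small differences fare here. Python 3.11.15, numpy 2.4.6, pandas 2.3.3 and matplotlib 3.10.9 were used for the rest.

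Siblings come from 1 progenitor and so 1 animal, so the clone letter pairs cells across tissues in 9 clones. The correlation of a pair's deviations from the tissue means ran between -0.0253 and 0.0628 (0 of 9 pairs above 0.1). Fits with clone as a replicate block are given beside the results: for sSC minus dSC the median over all genes was -0.66.

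By rule, full values are given for the 10 members of highest median and those at an unadjusted p under 0.05, and up to 2 genes per partner list are named by smallest p. The members, lists, rule and most alternatives were chosen with earlier results of these data known. Alternatives changed the pseudocount (0.1 and 10), the filter, the normalization, the variance model, the cells, the balance and the level at which a member counts as present. The partner gene Arvcf was not matched to 1 symbol and was left out.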

Additional observations from a re-analysis of the deposited data

Results flagged for a closer look

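In sSC, 5 Sox2-CreER clones gave a mean level for each of 31 members tested, and in 3 members the value of clone H stood apart from the other 4 clones. Cdh8, a type II cadherin, was at 0.41 in clone H on the log2(value + 1) scale, while the other clones lay between 5.60 and 6.88. Pcdh17 was at 0 in clone H, against 4.30 to 5.43 in the other clones, and Pcdh19, a delta-2 protocadherin of the X chromosome, was at 0, against 3.28 to 4.59. How often chance alone would set a clone apart in this way was not measured for these data, which hold many values of 0. All 3 rest on 1 cell, the sSC cell of clone H, in which 6180 genes reached 1, fewer than in all but 1 of the 36 cells. The same cell held the highest Cdh10 value of the data, 301, and the highest Cdh6 value, 112. The part of its low gene number in the 3 values at or near 0 was not tested. Such values also occurred in Fz10-CreER sSC cells, given here as deposited. Cdh8 was at 0 in clones A, B and L, Pcdh19 at 0 in clones I and J, and Pcdh17 at 0.798 in clone J.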

How the results depend on the processing

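The count of members called was 0 in the tissue, driver, slope and clone fits under every alternative run. Counts of all genes called moved. For tissue, 1 gene passed with a pseudocount of 10, with quantile normalization and with clone as a replicate block, against 0. For driver, 1 gene passed with a pseudocount of 10, and leaving out each clone in turn gave 0 to 5 (5 without clone H, 1 without clone F), against 0. For the slope, 1 gene passed with clone as a fixed replicate block and 3 with Slc17a6 alone, against 12. For the clone effect, 6 genes passed with a pseudocount of 0.1, 60 with no filter on low values and 1 without trend and robust, against 3. The median number of members per cell was 24 at 1 or more and 2 at 100 or more, against 16. The cause of these changes was not tested. By sign, the slopes of Pcdh20 (0.11 to 0.46), Cdh7 (-0.48 to -0.17) and Cdh9 (-0.39 to -0.15) kept their sign in all 10 alternatives, as did Cdh23 between tissues (-1.97 to -0.24, 8 alternatives) and Cdh13 between drivers (-3.70 to -1.35, 23 alternatives). An unadjusted p under 0.05 was lost by Cdh23 in 5 of its 8 alternatives (up to 0.587), by Cdh13 in 9 of 23 (up to 0.121, without clone N) and by Cdh9 in 1 of 10 (0.0904, with clone as a fixed replicate block). With quantile normalization Cdh23 was at -0.24, and the median over all genes was 0.01 in place of -0.31. Without the sSC cell of clone B that median was -0.14. With 5 Sox2-CreER clones and a signal that keeps no depth, a member near 0 cannot be told from one that was not captured.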

Other observations

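The 2 PAG cells entered no comparison between tissues. The PAG cell of clone H had a transmitter balance of -6.66, with Cdh7 at 93.8, Cdh9 at 66.9 and Pcdh20 at 3.81. The PAG cell of clone D had a balance of 2.93, with Cdh7 at 24.4, Cdh9 at 6.18 and Pcdh20 at 62.4. In Cdh10 the clone D cell was at 119 and the clone H cell at 24.8, and in Pcdh10 they were at 95.8 and 1.38. Fat4 and Fat2 were listed at 0 in both.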
